A study of Mus musculus with 2 samples.

Results

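Cells with endothelial transcripts but no transcript of 3 sinusoidal genes were looked for in 2 single-cell libraries of mouse bone marrow stroma, and 85 of 17835 cells met the rule, 19 of 9390 in the pulse library and 66 of 8445 in the chase library. A cell was taken when Cdh5, Kdr, Egfl7 and Pecam1 together had at least 4 UMIs (unique molecular identifiers, each counting 1 captured transcript) and when Stab2, Flt4 and Gpr182 were all at 0. It also had at most 3 UMIs of C1qa, C1qb and C1qc, at most 2 of Pf4 and Ppbp, and under 100 of Cxcl12 per 10000 UMIs. The measured counts of these 13 genes chose the cells, so their levels are given below as a description. For comparison, 1239 cells with at least 2 UMIs of Stab2, Flt4 and Gpr182 are called sinusoidal cells here (679 pulse, 560 chase), and their purity is described below.

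The cells came from male Adipoq-CreERT2;Ai9 mice, in which a tamoxifen-activated Cre driven by the Adipoq promoter switches on the red fluorescent protein tdTomato from the Ai9 allele. Tamoxifen was gavaged on 3 consecutive days at 8 weeks of age in both groups, and bones were taken 24 hours later (pulse) or 4 weeks later (chase). Femur and tibia were flushed and the remaining shafts and ends were digested with enzymes, and brightly red cells were sorted, which were 0.01% of cells at the pulse and 0.29% at the chase. The series used 4 mice and each group has 1 library, so differences between pulse and chase lack a replicate check and carry no test. Every interval below is an exact 95% interval that covers counting error only.

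Endothelial cells line blood vessels and are joined to each other by VE-cadherin, the product of Cdh5. Marrow arterioles feed capillaries that run along the endosteum and through the metaphysis, and these drain into wide, thin-walled sinusoids whose lining takes up material from the blood through scavenger receptors such as stabilin 2 (Stab2). Arterial endothelium is known for Notch ligands, ephrin B2 and gap junction connexins, capillary endothelium for lipid handling proteins, and venular endothelium for selectins and the chemokine receptor Ackr1. Of the 4 genes that mark the cells looked for, Cdh5 (mm10 chr8:104101625-104144511, plus strand) encodes that cadherin and Cldn5 (chr16:18776847-18778262, plus strand) a tight junction protein. Egfl7 (chr2:26580014-26593120, plus strand) encodes a secreted endothelial factor, and Ly6c1 (chr15:75044018-75048830, minus strand) a surface antigen of capillary and arteriolar endothelium. Ly6c1 is nearly identical to the monocyte gene Ly6c2, so reads of the pair may have been split between them and the level of each is uncertain.

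Most of the 85 gated cells did not carry the markers of endothelium beyond the 4 genes that chose them. Cdh5 was at 0 in 57 of 85 cells, and neither Cdh5 nor Kdr was detected in 53 of them. Of 14 other endothelial markers (Tie1, Tek, Emcn, Cldn5, Esam, Ptprb, Eng, Erg, Sox18, Robo4, Ecscr, Clec14a, Mmrn2 and Flt1), 25 cells had none, 34 had 1 or 2, and 22 had at least 4. Ptprc, which encodes the pan-leukocyte antigen CD45, was detected in 59 of the 85 cells. The name non-sinusoidal endothelial cells therefore went against the data for most of the set, and the cells are called gated cells here. Among the named markers, Egfl7 was detected in 70 of 85 cells, Cdh5 in 28, Ly6c1 in 20 and Cldn5 in 16.

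Most gated cells lay near the minimum of the gate. In 62 of the 85 cells the 4 endothelial genes summed to fewer than 8 UMIs, with 9 pulse and 19 chase cells exactly at the minimum of 4, and 33 pulse and 35 chase cells lay just outside at 3. Gated cells had a median of 13480 UMIs in the pulse and 15354 in the chase, against 7844 and 7527 over all kept cells and 8859 and 9860 in sinusoidal cells. The absence of sinusoidal transcripts kept out 396 pulse and 341 chase cells that met every other condition, of which 17 and 20 had a single UMI of Stab2, Flt4 or Gpr182.

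A split chosen after seeing these data separated the gated cells into 2 unlike groups. One holds the 20 cells with at least 1 UMI of Cdh5 and none of Ptprc (2 pulse, 18 chase), called Cdh5+ Ptprc- cells below. The other holds the remaining 65 gated cells (17 pulse, 48 chase). At least 4 of the 14 other endothelial markers were detected in 18 of the 20 Cdh5+ Ptprc- cells and in 4 of the 65 remaining cells, and at least 8 in 15 and 3 cells. The 4 gate genes summed to between 4 and 43 UMIs in the 18 chase Cdh5+ Ptprc- cells, with a median of 16, and to between 4 and 41 in the remaining cells, with a median of 5.

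**Figure D1:**
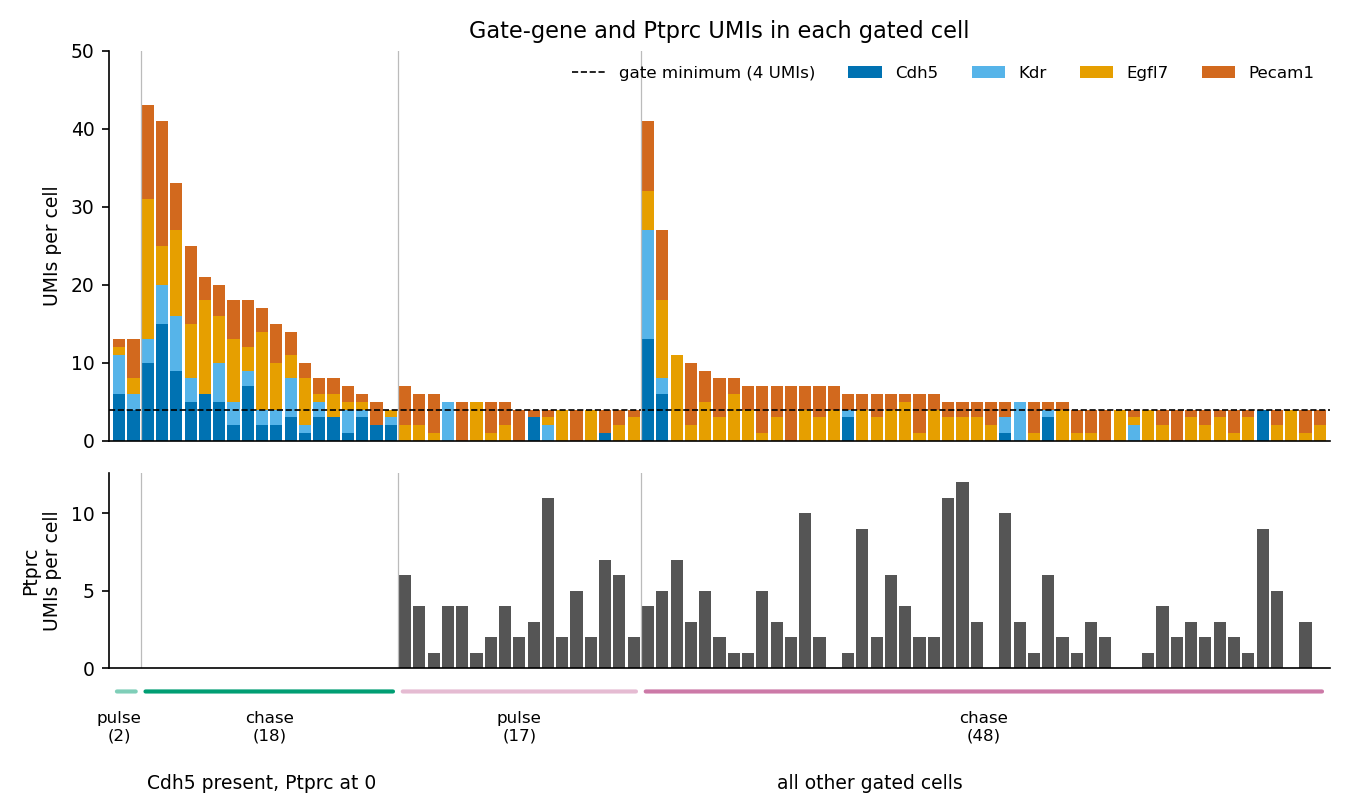
UMIs of Cdh5, Kdr, Egfl7 and Pecam1 (stacked bars, upper panel) and of Ptprc (lower panel) in each of the 85 gated cells by library; cells with Cdh5 and no Ptprc stand first, and the dashed line is the gate minimum of 4 UMIs. The 2 pulse and 18 chase cells with Cdh5 and no Ptprc usually carried all 4 genes, whereas most of the other 17 and 48 cells reached the minimum on Egfl7 and Pecam1 and had Ptprc.

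Per 10000 UMIs, the 14 endothelial markers outside the gate had a median of 55.0 in the 20 Cdh5+ Ptprc- cells, 0.403 in the 65 remaining cells and 50.5 in the 1239 sinusoidal cells. The 13 genes of the blood progenitor and pan-blood lists had medians of 3.51, 71.4 and 5.25 in the same order. Those 13 genes include Ptprc, which made the split. Without it the blood medians were 3.51, 60.3 and 5.22, and the endothelial sum exceeded the blood sum in 18 of 20 Cdh5+ Ptprc- cells, in 2 of 65 remaining cells and in 871 of 1239 sinusoidal cells. Summed over cells, the 14 markers stood at 127 and 163 CPM (counts per 1000000 UMIs of a class) in the remaining pulse and chase cells. They stood at 196 and 215 CPM in the cells with at least 100 UMIs of Cxcl12 per 10000, called high Cxcl12 cells. Sinusoidal cells were not removed from that class.

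**Figure D2:**
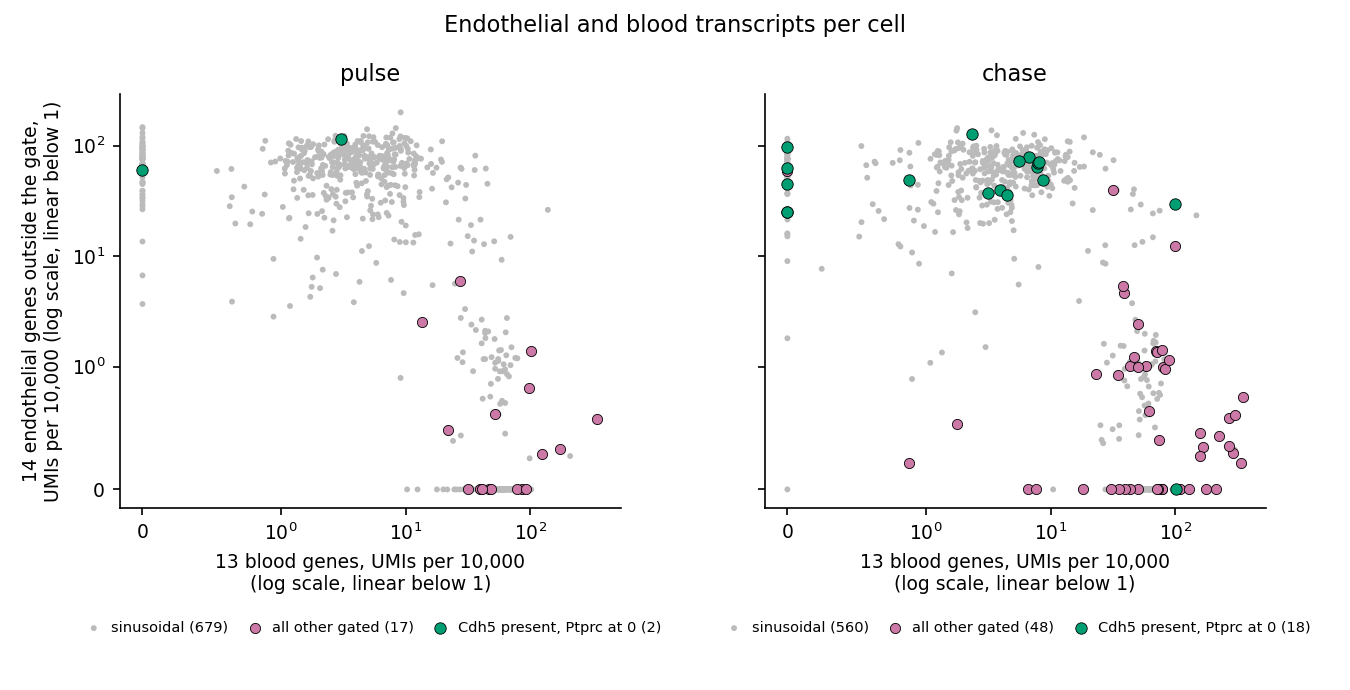
Each point is 1 cell of the pulse (left) or chase (right) library, placed by the summed UMIs per 10000 of 13 blood genes (x) and of 14 endothelial markers outside the gate (y), on axes that are linear near 0 and logarithmic above. Most Cdh5+ Ptprc- cells (green) lie among the sinusoidal cells (grey) at the upper left, and the remaining gated cells (pink) lie at 0 to 59.4 on the endothelial axis with a median of 71.4 on the blood axis.

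Blood genes led the set as a whole. Of 9815 genes with at least 50 UMIs over the gated and sinusoidal cells of each library, 838 (8.54%) were at least 2-fold higher in gated cells in both libraries and 2328 (23.7%) at least 2-fold lower. The rule chose both classes, so these counts describe them. Plac8, a gene of myeloid and lymphoid progenitors, stood at 2033 CPM in pulse and 2048 CPM in chase gated cells, against 59.3 and 56.3 in sinusoidal cells, ratios of 34.3 and 36.4. Cd69, an early activation antigen of lymphocytes, stood at 287 and 238 CPM against 8.51 and 4.85. Bcl11a, a transcription factor of lymphoid and dendritic precursors, stood at 111 and 92.0 CPM against 4.82 and 2.26. All 3 genes were thus high in both libraries at similar levels. Ms4a3, a gene of granulocyte and monocyte progenitors, was 51.0-fold and 27.7-fold higher, but 1 cell held 53.1% of its pulse UMIs.

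The granule enzymes and receptors of blood progenitors were high in the same direction. Mpo, the myeloperoxidase of granulocyte precursors, stood at 2570 and 3164 CPM in the pulse and chase gated cells and at 63.7 and 101 CPM in sinusoidal cells, and it was detected in 9 pulse and 37 chase gated cells. Elane, Prtn3 and Ctsg, which encode serine proteases of the same granules, stood at 1610, 1801 and 1525 CPM in the pulse and at 2002, 2962 and 1721 CPM in the chase. Myb, a transcription factor of blood progenitors, stood at 205 and 231 CPM against 8.94 and 3.07. Flt3, a cytokine receptor of lymphoid and dendritic progenitors, stood at 44.0 and 57.4 CPM against 1.28 and 0.808. Kit, the stem cell factor receptor, differed less, with 76.3 and 78.6 CPM against 34.5 and 34.8. In the 65 remaining cells, the blood progenitor list (Kit, Mpo, Elane, Ctsg, Flt3, Prtn3, Myb and Cd27) summed to 8122 CPM in the pulse and 11147 in the chase, compared with 321 CPM in the 18 chase Cdh5+ Ptprc- cells.

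Dividing cells were also concentrated there. In gated against sinusoidal cells, 15 of 16 cell cycle genes were at least 2-fold higher in each library, with median log2 ratios of 2.37 (pulse) and 3.49 (chase), where the medians over all described genes were -0.32 and -0.34. Of all 9815 described genes, 8.54% were at least 2-fold higher in both libraries. The chase median of the cell cycle genes turned to -0.30 when the gate was applied after thinning each cell to 3000 UMIs. Mki67, a protein of cycling nuclei, stood at 282 and 484 CPM against 62.4 and 30.6, and Top2a, the topoisomerase of dividing cells, at 487 and 596 CPM against 66.7 and 42.0. The replication-dependent histone gene Hist1h1b stood at 681 and 987 CPM against 38.2 and 33.9. Phgdh, the first enzyme of serine synthesis, stood at 205 and 245 CPM against 9.36 and 6.95. Ribosomal protein genes took 268353 and 281251 CPM of the gated cells, more than in the sinusoidal cells at 131304 and 110136 CPM. The cell cycle list summed to 4610 and 5838 CPM in the remaining cells and to 1012 CPM in the chase Cdh5+ Ptprc- cells.

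Pan-endothelial and venous genes were low in the gated cells. For scale, 23.7% of all 9815 described genes were at least 2-fold lower in both libraries, which is stricter than a count in 1 library. The median log2 ratios over all described genes were -0.32 in the pulse and -0.34 in the chase. All 14 markers outside the gate were at least 2-fold lower than in sinusoidal cells in each library (median log2 ratio -3.34 in the pulse and -2.72 in the chase). All 6 described venous genes were also at least 2-fold lower in each library (medians -4.70 and -4.34). Of 8 capillary genes, 5 were lower in each library (medians -2.61 and -1.43). Of 7 arterial genes, 3 were lower and 1 higher in the pulse and 4 were lower in the chase, with medians of -0.89 and -1.38, the latter of which turned to 0.044 with means of per-cell CPM. Cldn5 stood at 2.93 CPM in the pulse and 55.0 in the chase gated cells, against 489 and 503 in sinusoidal cells. Of the gate genes, whose levels the rule set, Cdh5 stood at 41.1 and 87.3 CPM against 702 and 635, and Egfl7 at 88.0 and 184 against 532 and 533. Adamts5, a secreted matrix protease, stood at 8.80 and 4.72 CPM against 1039 and 858. Vcam1, the ligand of leukocyte integrins, stood at 44.0 and 54.2 CPM against 2732 and 2881. Ackr1 was not detected in gated cells and stood at 214 and 186 CPM in sinusoidal cells, at least 24.3-fold and 78.8-fold lower than there when 3 counts are taken as the floor. Immediate early genes, the first to be transcribed after a stimulus, were at least 2-fold lower in 15 of 20 cases in the pulse and 19 of 20 in the chase.

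Marker lists showed what the 65 remaining cells held. A list counted as held when a cell had at least 10 UMIs and 3 genes of it, which deep cells meet more easily, and their median depth was 19950 UMIs. The pan-blood list was held by 59 of 65, the cell cycle list by 53 and the blood progenitor list by 45, while 0 of 20 Cdh5+ Ptprc- cells held the blood progenitor list (upper bound 16.8%) and 14 of 1239 sinusoidal cells did (1.13%). The monocyte or macrophage list was held by 24 of 65, the neutrophil list by 15, the plasmacytoid dendritic list by 10, the stromal list of CXCL12-abundant reticular cells by 8 and the osteoblast list by 7. No gated cell held the lymphatic, T or NK cell, plasma cell, megakaryocyte or Schwann cell list. The rule itself capped Pf4 and Ppbp of the megakaryocyte list and the C1q genes of the monocyte or macrophage list. It also capped Cxcl12 of the reticular list, so low counts for these lists are partly set by the rule. Of the endothelial markers in these cells, Erg was detected in 25 and Eng in 21 of 65, while Cldn5 was detected in 1 and Emcn, which encodes endomucin, in 3.

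A few remaining cells carried both kinds of transcript. A chase cell of 60976 UMIs had all 14 endothelial markers outside the gate and 13 UMIs of Cdh5 beside 433 UMIs of the blood progenitor list and 4 of Ptprc. A chase cell of 9851 UMIs had 12 of the markers and 6 UMIs of Cdh5 beside 1765 UMIs of the neutrophil list. The deepest pulse cell, of 45686 UMIs, had 10 of the markers with 2502 UMIs of Col1a1, 8056 of the neutrophil list and 11 of Ptprc. A doublet caller (Scrublet) marked 178 pulse cells (1.90%) and 110 chase cells (1.30%), of which 1 was a gated chase cell and none was a Cdh5+ Ptprc- cell. Whether these cells were doublets was not tested further.

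Clustering of the 85 cells alone gave 5 groups, and the genes that define them are not findings. Cluster 1, of 22 cells, held 15 of the 20 Cdh5+ Ptprc- cells and was led by Rgs5, S100a9, Ly6c1, Igfbp3 and Col4a1. It stayed unnamed because 4 of its 10 leading genes were neutrophil markers and 2 were capillary markers. Cluster 2 (22 cells) was led by B lineage precursor genes such as Vpreb1, which was found in 4 cells, and by Flt3, found in 16. Cluster 3 (20 cells, median 28866 UMIs) carried Mpo in all 20 cells, Elane in 17, Ms4a3 in 19 and the basophil protease gene Mcpt8 in 13. Cluster 4 (12 cells) was led by the carbonic anhydrase genes Car1 and Car2, found in 2 and 6 cells. Clusters 2 to 4 also stayed unnamed.

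Cluster 5, of 9 cells (3 pulse, 6 chase), was plasmacytoid dendritic-like, with all 4 fixed markers of that type detected. Siglech, a surface lectin of these interferon-producing cells, stood at 2681 CPM and was found in all 9 cells, as was the chemokine receptor gene Ccr9.

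The 20 Cdh5+ Ptprc- cells made up 10.5% (1.30 to 33.1) of the gated cells in the pulse and 27.3% (17.0 to 39.6) in the chase. The 2 pulse cells had 3296 and 5923 UMIs and the 18 chase cells between 1115 and 12844, with a median of 5462 and 102777 UMIs in all. The comparisons that follow therefore use the chase cells. Cdh5 ranged from 1 to 15 UMIs over the 18 cells with a median of 3. Ly6c1 was detected in 14 of 18 cells with a median of 7 UMIs and a highest count of 19, whereas it was detected in 4 of the 65 remaining cells. Cldn5 was also detected in 14 of 18, with a median of 2 UMIs and a highest count of 18. Ly6c2 was detected in 3 of the 18 cells, and 1 cell held 64.7% of its UMIs.

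Not all 18 cells were free of other lists. One had 16 UMIs of Siglech, 62 of the pan-blood list and none of the 14 endothelial markers, and it belonged to cluster 5. Another, of 8014 UMIs, had 8 of the markers with 59 pan-blood, 59 cell cycle and 84 monocyte or macrophage UMIs, and the shallowest, of 1115 UMIs, had 85 neutrophil UMIs. Rgs5, a pericyte gene, summed to 311 UMIs in 5 cells, and 3 cells held the mural list (Rgs5, Acta2, Myh11, Notch3, Pdgfrb, Kcnj8 and Cspg4), which stood at 3785 CPM against 397 in chase sinusoidal cells. Leaving out cells with another list kept 1 pulse and 10 chase cells, the latter with 36286 UMIs.

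Of 2373 genes described in these 18 cells and the 560 chase sinusoidal cells, 327 (13.8%) were at least 2-fold higher and 301 (12.7%) at least 2-fold lower. A gene was described if it had 10 UMIs in the 18 cells or would have had 10 there at its sinusoidal level. Of the 595 genes that passed only by the first condition, 265 were higher and 0 lower, and of the 387 that passed only by the second, 0 were higher and 225 lower, so that for these genes the filter fixed which direction could be seen. Of the 1391 genes that passed by both, 62 were higher and 76 lower. Gene lists are therefore compared below by the sum over all of their genes outside the gate, with no filter on single genes. Without the cells that held another list the counts were 156 and 117. The sinusoidal class itself was mixed: 29.4% of its cells held the monocyte or macrophage list and 51.3% the CXCL12-abundant reticular list. A second comparison therefore used the 700 sinusoidal cells (321 chase) that met the same endothelial, C1q, Pf4, Ppbp and Cxcl12 limits as the gate, of which 2.00% held the monocyte or macrophage list and 35.4% still held the CXCL12-abundant reticular list. It gave 267 genes higher and 237 lower.

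Over all 18 chase Cdh5+ Ptprc- cells, pan-endothelial genes lay between the 2 sinusoidal groups. The 14 markers outside the gate summed to 5030 CPM, 1.31-fold (1.20 to 1.43) the level of chase sinusoidal cells (3841 CPM) and 0.774-fold (0.708 to 0.844) that of limited sinusoidal cells (6503 CPM). That place changed when those of the 18 cells that held another list were left out. The sum was then 7441 CPM (270 UMIs in 10 cells), with ratios of 1.94 and 1.14. Here and below, this step left the 2 sinusoidal groups as they were. Their cells with another list stayed in, so these ratios compare unlike sets. Emcn stood at 584 CPM against 327 in sinusoidal and 545 in limited sinusoidal cells. Cldn5 stood at 671 CPM against 503 and 859, and Tie1, an angiopoietin co-receptor, at 360 against 184 and 316. Plvap, which forms the diaphragms of fenestrae and caveolae, was found in 17 of 18 cells at 739 CPM against 742 and 1266. The 4 values for the Cdh5+ Ptprc- cells thus lay below, between or just above those of the 2 sinusoidal groups.

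Arterial genes had a higher summed level. All 13 together stood at 1489 CPM against 441 in chase sinusoidal and 444 in limited sinusoidal cells, ratios of 3.38 (2.85 to 3.98) and 3.36 (2.82 to 3.97). Without the cells that held another list the sum was 1213 CPM, 2.75-fold the level of chase sinusoidal cells, and 1 cell held 25.5% of the list's 153 UMIs. The filter left 7 of the 13 genes, 6 of them only through their counts in the 18 cells, so their number is not set beside the share of all genes. Efnb2, the arterial ephrin, stood at 195 CPM against 39.8, a ratio of 4.89 (2.94 to 7.72), and was detected in 6 of 18 cells. Dll4, a Notch ligand, also stood at 195 CPM, against 55.9, a ratio of 3.48. Sox17, an arterial transcription factor, stood at 107 CPM against 29.6 and was detected in 7 cells. These 3 genes were thus found in fewer than 8 of the 18 cells. Sema3g, a secreted semaphorin, stood at 146 CPM against 18.8 (ratio 7.78, 4.22 to 13.4; 8 cells). Gja4, the gene of connexin 37, stood at 68.1 CPM against 6.30 (ratio 10.8, 4.08 to 24.4; 5 cells). Mecom, a transcription factor, stood at 136 CPM against 4.04 in 7 cells, a ratio of 33.7 (16.2 to 67.4). Gja5, the gene of connexin 40, had 9 UMIs in 2 of the 18 cells and none in the 560 sinusoidal cells. Fbln5, an elastic fibre protein, stood at 253 CPM against 232. The Notch ligand gene Jag2, outside the arterial list, stood at 107 CPM, 8.95-fold (4.28 to 17.0) its sinusoidal level. Jag2 belongs to the Notch pathway genes, whose summed ratios were 1.10 and 0.785. Mecom, Sema3g and Jag2 were among the genes that ranked highest under a rule chosen after seeing the data. The log2 ratios of Mecom, Sema3g and Jag2 were 5.10, 3.00 and 3.22 against all chase sinusoidal cells. Against limited sinusoidal cells they were 4.46, 2.20 and 2.29.

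The arterial transcripts were unevenly spread over the cells. The 13 arterial genes summed to between 0 and 39 UMIs with a median of 3, and 4 of the 18 cells had none. The highest sums were 39, 30 and 22 UMIs in chase cells of 11385, 12844 and 11208 UMIs. The first and last of these cells also carried 161 and 88 UMIs of Rgs5, and the second 15 UMIs of Adipoq, and the part of such cells in the list's level was not tested apart from leaving them out as above. One of the 2 pulse cells had 25 arterial UMIs beside 186 capillary UMIs. After thinning each cell to 2000 UMIs, at least 2 arterial UMIs were found in 9 of 14 chase Cdh5+ Ptprc- cells (64.3%, 35.1 to 87.2), in 2 of 47 remaining gated cells (4.26%) and in 128 of 536 sinusoidal cells (23.9%, 20.3 to 27.7). Thinning left out 4, 1 and 24 shallower cells, and without it the shares in the first and last of these classes were 66.7% and 57.3%.

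Capillary genes were divided. The list summed to 8047 CPM, 1.37-fold (1.28 to 1.47) the level of chase sinusoidal cells and 0.829-fold (0.773 to 0.889) that of limited sinusoidal cells. Leaving out those of the 18 cells that held another list gave 13256 CPM and ratios of 2.25 and 1.37. The second ratio thus changed sides, with the sinusoidal groups left unchanged. Gpihbp1, which anchors lipoprotein lipase to the capillary wall, stood at 1158 CPM against 360 in chase sinusoidal and 604 in limited sinusoidal cells (ratio to the former 3.22, 2.65 to 3.87), and it was found in 13 of 18 cells. Ly6c1 stood at 1333 CPM against 188 and 326, a ratio of 7.09 (5.90 to 8.47), and Ly6a, a related antigen, at 983 against 304 and 517. Cd34, a sialomucin of capillary and progenitor cells, stood at 516 CPM against 76.1 and 131 and was found in 13 cells. That gene belongs to the leukocyte adhesion list and not to the capillary list. Over all 18 cells the lipid carriers went another way. Fabp4 stood at 3678 CPM against 4250 and 7082, and the fatty acid transporter gene Cd36 at 234 against 296 in sinusoidal cells. The 12 genes of fatty acid handling, with 66.7% of their UMIs from Fabp4, had summed ratios of 1.05 and 0.652. Without the cells that held another list these were 1.79 and 1.12, so this direction depended on those cells. In all, 4 of the 8 described capillary genes were at least 2-fold higher than in chase sinusoidal cells. Each of the 8 passed the filter by both conditions, as did 1391 genes in all, of which 62 were higher. The median log2 ratio of the list was 0.73 against chase sinusoidal cells and 0.11 against limited sinusoidal cells. Thinned to 2000 UMIs, 13 of 14 Cdh5+ Ptprc- cells (92.9%) and 408 of 536 sinusoidal cells (76.1%) had at least 2 capillary UMIs.

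The 11 genes listed for the endothelium of the metaphysis summed to 1138 CPM against 581 in chase sinusoidal and 713 in limited sinusoidal cells, ratios of 1.96 (1.61 to 2.35) and 1.60 (1.31 to 1.92). The filter left 7 of them, 5 only through their counts in the 18 cells and 1 only through its sinusoidal level. Mcam, an adhesion molecule of the vessel wall, stood at 292 CPM against 69.8 (ratio 4.18, 2.79 to 6.06; 8 cells), and Ramp3, which pairs with the adrenomedullin receptor, at 126 against 28.8 (7 cells). Esm1, a tip cell proteoglycan, stood at 48.6 CPM against 191. Apln, the tip cell peptide, was not detected. At least 2 UMIs of the list after thinning were found in 9 of 14 Cdh5+ Ptprc- cells (64.3%) and in 156 of 536 sinusoidal cells (29.1%), and in 0 of 47 remaining gated cells (upper bound 7.55%). The difference from sinusoidal cells was smaller under other settings. At least 4 UMIs were found in 1 of 14 Cdh5+ Ptprc- cells (7.14%) and in 6.53% of sinusoidal cells, and without thinning at least 2 were found in 77.8% and 67.3%. The list was held, by the rule of 10 UMIs and 3 genes, by 10.0% of the 20 Cdh5+ Ptprc- cells and 19.1% of all sinusoidal cells.

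Basement membrane genes summed to 11248 CPM against 6205 in chase sinusoidal and 9031 in limited sinusoidal cells, ratios of 1.81 (1.71 to 1.92) and 1.25 (1.17 to 1.32), with 48.5% of the UMIs from Sparc. The filter left 12 of the 14 genes, 7 of them only through their counts in the 18 cells. Col4a1 and Col4a2, the chains of type IV collagen, stood at 1897 and 1421 CPM against 663 and 400 in chase sinusoidal cells, and they were found in 16 and 14 of the 18 cells. Col18a1, the collagen from which endostatin is cut, stood at 282 CPM against 15.4, a ratio of 18.4 (11.7 to 28.1). Sparcl1, a matricellular protein, stood at 574 CPM against 37.0 (15.5, 11.4 to 20.7), with 0 to 14 UMIs per cell and a median of 1. Type IV collagen was thus found in nearly all of the cells, while Sparcl1 was found in 10 and Col18a1 in 8. Igfbp3, a secreted binder of insulin-like growth factors, stood at 1343 CPM against 77.1 (17.4, 14.3 to 21.1) in 11 cells, of which 1 held 40.6% of its UMIs. Col18a1, Sparcl1 and Igfbp3 were among the genes that ranked highest under a rule chosen after seeing the data. Their log2 ratios were 4.22, 3.96 and 4.13 against all chase sinusoidal cells and 3.45, 3.04 and 3.73 against limited ones.

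The 9 genes of caveolae and transcytosis summed to 2637 CPM, 1.63-fold (1.44 to 1.83) the level of chase sinusoidal cells but 1.02-fold (0.901 to 1.15) that of limited sinusoidal cells, an interval that includes equal levels. Without the cells that held another list the sum was 3528 CPM and the ratios were 2.18 and 1.37. Cav1, the main caveolar coat protein, stood at 185 CPM against 27.2 (ratio 6.81; 8 cells) and Cavin1, its cytoplasmic partner, at 457 against 141. Among further genes that ranked highest under a rule chosen after seeing the data, Ackr3, a scavenging receptor for CXCL12, stood at 146 CPM against 8.89 (16.4, 8.61 to 29.5; 7 cells). S100a6, a calcium-binding protein, stood at 1090 CPM against 67.6 in 12 cells, Sema7a, a membrane-anchored semaphorin, at 282 against 18.8 in 10 cells, and Fbln2, a matrix protein, at 331 against 26.0 in 9 cells. Against all chase sinusoidal cells the log2 ratios of Cav1, Ackr3, Sema7a and Fbln2 were 2.80, 4.07, 3.93 and 3.68. Against limited sinusoidal cells they were 2.00, 3.36, 3.69 and 2.99, while S100a6 hardly differed (4.02 and 4.04). Notch pathway genes were mixed, with summed ratios of 1.10 (0.923 to 1.30) and 0.785 (0.659 to 0.928) to all and to limited sinusoidal cells. With the cells that held another list left out, these ratios were 1.40 and 1. Notch4 stood at 146 CPM against 48.7, whereas Notch1 stood at 136 against 179 and the target gene Hes1 at 389 against 617.

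**Figure D3:**
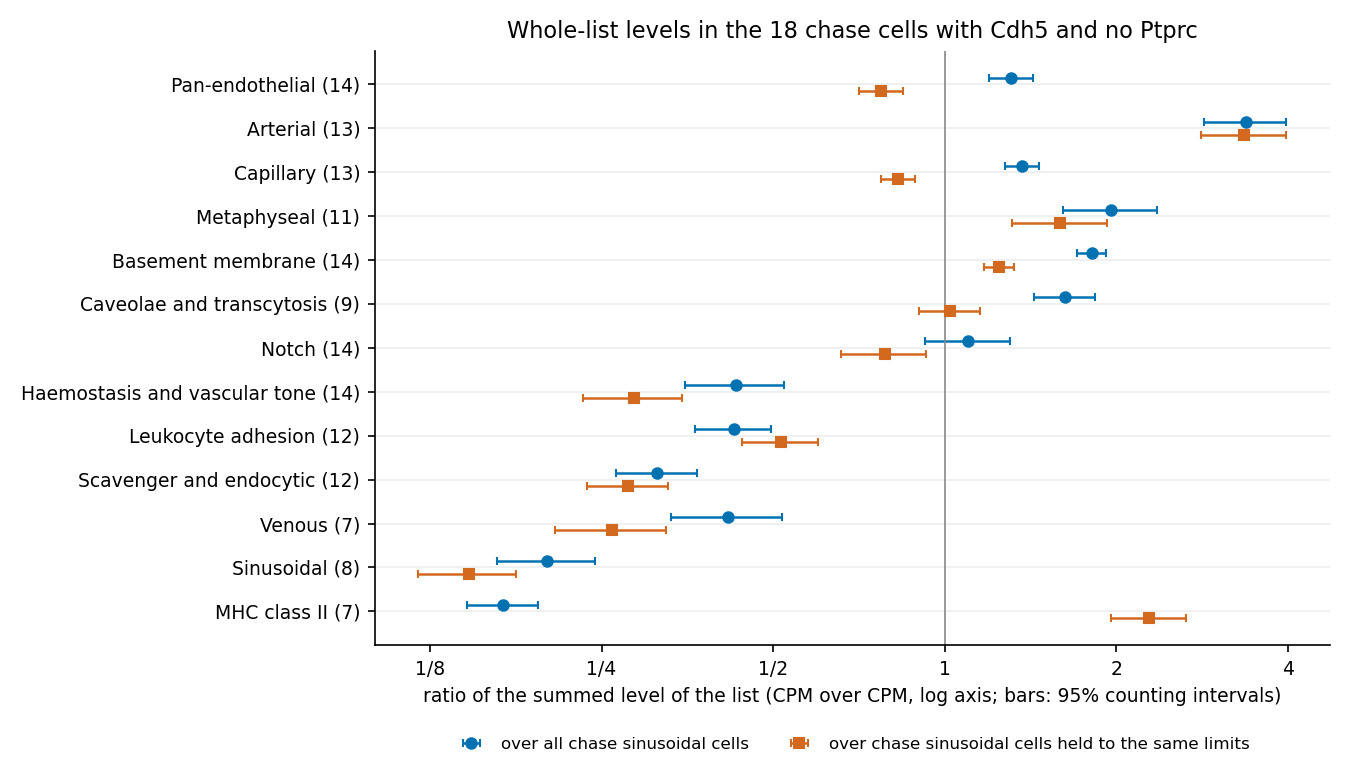
Ratio of the summed level of each gene list in the 18 chase cells with Cdh5 and no Ptprc over chase sinusoidal cells (blue circles) and over chase sinusoidal cells held to the same limits (orange squares), with 95% counting intervals on a logarithmic axis and the number of genes in brackets. The arterial ratios were 3.38 and 3.36 and the sinusoidal ratios 0.201 and 0.146, while the MHC class II ratio changed from 0.168 to 2.28.

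Genes of sinusoids other than the 3 used for gating were lower. The 8 genes summed to 1002 CPM against 4990 in chase sinusoidal and 6861 in limited sinusoidal cells, ratios of 0.201 (0.164 to 0.244) and 0.146 (0.119 to 0.177). Both classes were chosen on Stab2, Flt4 and Gpr182, which belong to the same list. Adamts5 stood at 19.5 CPM against 858 and 1450, 44.1-fold lower (12.2 to 364) than in all chase sinusoidal cells. Mrc1, the mannose receptor, stood at 58.4 CPM against 1000 and 784, and Il6st, the shared receptor chain of interleukin 6 cytokines, at 156 against 802 and 1273. Stab1, the other stabilin, stood at 126 CPM against 383, and the lysosomal protease gene Ctsl at 623 against 1505.

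Venous genes had a lower summed level, with 788 CPM for the 7 genes against 1888 in chase sinusoidal and 3023 in limited sinusoidal cells, ratios of 0.417 (0.331 to 0.519) and 0.261 (0.207 to 0.324). A single gene, Lrg1, supplied 64.2% of the 81 venous UMIs in the 18 cells. Leukocyte adhesion genes also had a lower summed level, with a ratio of 0.427 (0.365 to 0.496) to chase sinusoidal cells. Cd34, which stood higher than in sinusoidal cells, supplied 31.2% of their UMIs in the 18 cells. The filter left 8 of the 12 genes, 2 only through their counts in the 18 cells and 3 only through their sinusoidal level. Of the 8, 3 were at least 2-fold higher and 4 lower. The filter fixed the direction that could be seen for genes passing by a single condition. These counts are therefore not set beside the share of all genes. Ackr1, Selp and Sele, the last 2 encoding the endothelial selectins, were not detected in the 18 cells and stood at 186, 148 and 107 CPM in chase sinusoidal cells, at least 6.37-fold, 5.07-fold and 3.65-fold lower with 3 counts over the group as the floor. Vcam1 stood at 146 CPM against 2881 and 1672 in all and in limited sinusoidal cells, 19.7-fold lower than in the former. Nr2f2, the transcription factor of venous identity, stood at 117 CPM against 342 (2.93-fold lower, 1.67 to 5.68). Icam1, the ligand of leukocyte integrins, stood at 38.9 CPM against 298, while Icam2 stood at 341 against 108. Ephb4, the venous receptor for ephrin B2, stood at 126 CPM against 86.2, on the other side of the comparison. Thinned to 2000 UMIs, at least 2 venous UMIs were found in 5 of 14 Cdh5+ Ptprc- cells (35.7%, 12.8 to 64.9) and 338 of 536 sinusoidal cells (63.1%, 58.8 to 67.2). Thinned to 4000 UMIs, the shares were 75.0% (9 of 12; 42.8 to 94.5) and 70.7% (66.5 to 74.7), so the order of the shares turned with depth.

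The 14 genes of haemostasis and vascular tone summed to 983 CPM against 2284 in chase sinusoidal and 3454 in limited sinusoidal cells, ratios of 0.430 (0.350 to 0.523) and 0.285 (0.232 to 0.346). Tfpi, the inhibitor of the tissue factor pathway, stood at 156 CPM against 1124 and 1851, 7.22-fold lower (4.44 to 12.6) than in all chase sinusoidal cells. Thbd, which encodes thrombomodulin, stood at 77.8 CPM against 370, and F8, the gene of clotting factor VIII, at 58.4 against 242. Immediate early genes had a summed ratio of 0.530 (0.502 to 0.560) to chase sinusoidal cells, among them Egr1 at 555 CPM against 2024, whereas Klf2, a factor induced by blood flow, stood at 1372 against 1049.

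MHC class II genes changed sides with the comparison class. The 7 genes summed to 1868 CPM, a ratio of 0.168 (0.145 to 0.193) to the whole chase sinusoidal class and of 2.28 (1.96 to 2.65) to the limited sinusoidal cells, and 1 of the 18 cells held 37.0% of the UMIs. Without the cells that held another list the 2 ratios were 0.121 and 1.65. H2-Aa stood at 321 CPM in the chase Cdh5+ Ptprc- cells, 2459 CPM in sinusoidal and 141 CPM in limited sinusoidal cells, and Cd74, the invariant chain, at 934, 4708 and 388 CPM. The macrophage genes Slc40a1, Cd83, Fcna, Ms4a7 and Spic were at 0 in the 18 cells, at 482, 378, 360, 206 and 172 CPM in chase sinusoidal cells, and at 30.3, 10.9, 3.62, 1.98 and 1.32 CPM in limited sinusoidal cells.

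**Figure D4:**
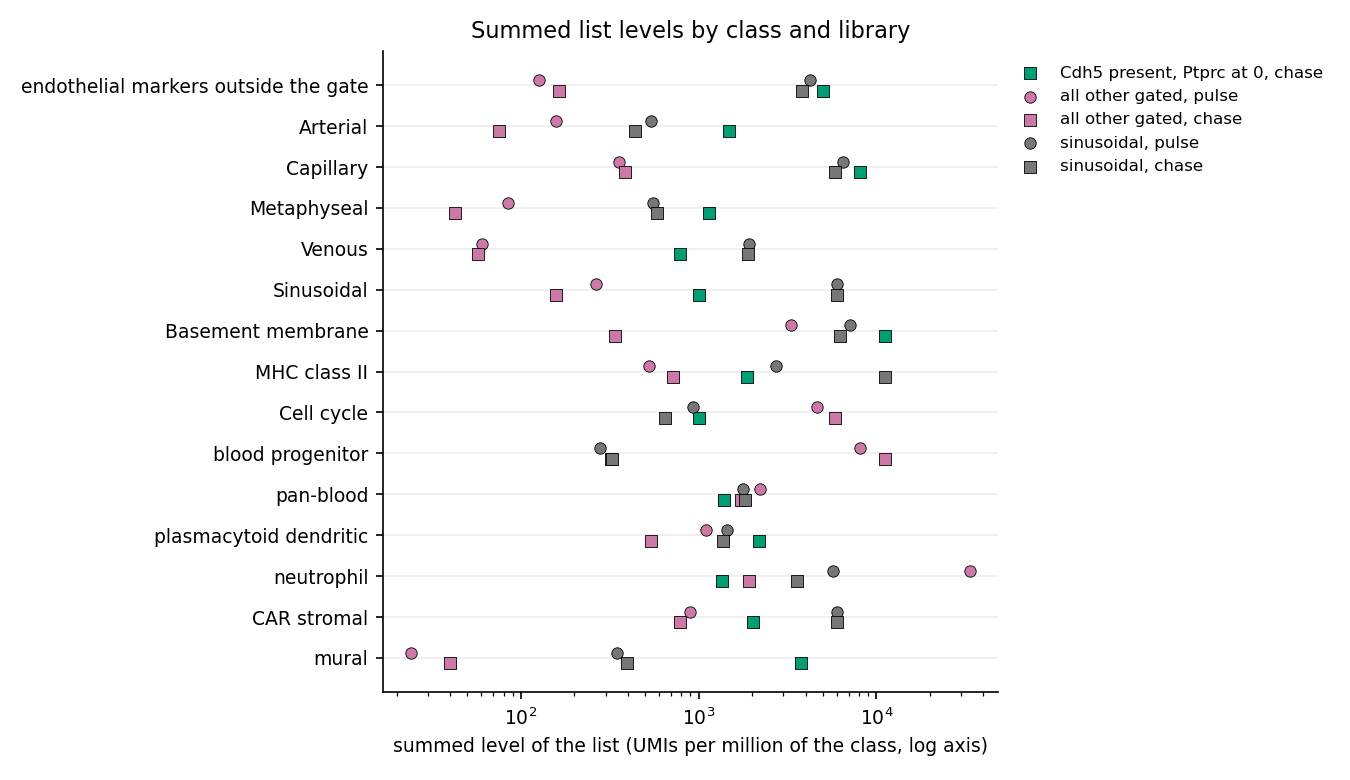
Summed level of each marker list (CPM, logarithmic axis) in the chase Cdh5+ Ptprc- cells (green), the remaining gated cells (pink) and sinusoidal cells (grey), circles for pulse and squares for chase. The blood progenitor list stood at 8122 and 11147 in the remaining cells, and the endothelial markers outside the gate at 5030 in the chase Cdh5+ Ptprc- cells.

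Gated cells were a larger share of the chase library than of the pulse library, 0.782% (0.605 to 0.993) against 0.202% (0.122 to 0.316), a ratio of 3.86 (2.29 to 6.82). The Cdh5+ Ptprc- cells differed by a ratio of 10.0 (2.40 to 88.9) and the remaining cells by 3.14 (1.77 to 5.82), while sinusoidal cells made up 7.23% of pulse cells and 6.63% of chase cells (ratio 0.917, 0.818 to 1.03). The sorted share of cells differed between the libraries as given above, and its part in these ratios cannot be told apart from the time since tamoxifen. The 2 matrices shared 52 barcodes, and none of them was a gated cell. The cells that met the rule changed with depth: after thinning every cell to 3000 UMIs, 15 pulse and 24 chase cells met the rule, of which 12 and 9 had a sinusoidal transcript among their full UMIs.

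The sorting label was low in the gated cells. tdTomato stood at 249 CPM in pulse and 139 in chase gated cells, against 543 and 491 in sinusoidal cells and 2103 and 1994 in the stromal cells with high Cxcl12. It was detected in 70 of the 85 cells. Adipoq, whose promoter drives the Cre, stood at 64.5 and 52.7 CPM against 332 and 322 in sinusoidal and 1798 and 1888 in high Cxcl12 cells, and it was detected in 23 gated cells. In the 18 chase Cdh5+ Ptprc- cells tdTomato stood at 632 CPM, with 0 to 26 UMIs per cell and a median of 1, and Adipoq was detected in 3 of them.

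Of 4493 genes described in gated cells of both libraries, 170 (3.78%) were at least 2-fold higher in the chase and 114 (2.54%) at least 2-fold lower, against 116 (1.04%) and 118 (1.06%) of 11162 genes in sinusoidal cells. Of the 114 lower genes, 61 (53.5%) had more than 50% of their pulse UMIs in 1 cell, and of the 170 higher genes 10 (5.88%) had more than 50% of their chase UMIs in 1 cell. Col1a2, a chain of type I collagen, stood at 6720 CPM in the pulse and 164 CPM in the chase, but 1 pulse cell held 96.2% of the pulse UMIs, and the log2 ratio of -5.36 became -0.78 without the deepest cell of each library. Dcn, which encodes decorin, stood at 484 and 7.08 CPM with 98.8% of the pulse UMIs in 1 cell. The neutrophil gene Lcn2 stood at 956 and 33.0 CPM with 69.9% in 1 cell. Car1, of erythroid progenitors, had no UMI in the pulse and 197 in the chase, 74.6% of them in 1 cell. Without the deepest cell of each library, 156 genes were higher and 79 lower.

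Lars2, the mitochondrial leucyl-tRNA synthetase, was detected in the most cells among the 24 genes ranked highest and lowest here. It stood at 150 CPM in the pulse and 438 CPM in the chase, a ratio of 2.93 (2.20 to 3.98), and it was detected in 17 of 19 and 64 of 66 gated cells. The log2 ratio of 1.54 turned to -0.60 in the Cdh5+ Ptprc- cells alone and to -1.47 with a gate sum of at least 8 UMIs, both with 2 pulse cells. The same gene had a ratio of 3.17 (3.00 to 3.36) in sinusoidal cells, so the difference was not limited to gated cells. Car2, a carbonic anhydrase of red cell precursors, stood at 61.6 and 286 CPM (4.65, 2.99 to 7.60) and had a ratio of 0.723 in sinusoidal cells. Blvrb, a haem-degrading enzyme, stood at 23.5 and 119 CPM (5.06, 2.50 to 11.9; 0.990 in sinusoidal cells), and Hmmr, a mitotic spindle protein, at 38.1 and 120 CPM (3.15; 0.442 in sinusoidal cells). The difference between gated and sinusoidal cells in these ratios was not tested, since each rests on 1 library per group.

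Some endothelial genes stood higher in the chase than in the pulse gated cells, where Cdh5+ Ptprc- cells were also a larger share. Ly6c1 stood at 64.5 CPM in the pulse and 140 CPM in the chase, a ratio of 2.17, which was 1.29 in the remaining cells alone. Of the 14 markers outside the gate, 8 were described, with a median log2 ratio of 0.67 over the 8, and 3 of them were at least 2-fold higher. The capillary list had 2 of 7 higher and a median of 0.10, while the single described arterial and venous genes had log2 ratios of -0.49 and -0.04. Cldn5 had 1 UMI in the pulse and 70 in the chase gated cells. Mgp, a matrix protein of vessel walls, stood at 26.4 and 120 CPM, a ratio of 4.56 that was 0.630 in the remaining cells. Chase Cdh5+ Ptprc- cells with 46 and 55 UMIs of Mgp also carried 44 and 161 UMIs of the pericyte gene Rgs5. MHC class II genes had a median log2 ratio of 0.86 with 1 of 5 at least 2-fold higher, while in sinusoidal cells the median was 2.07 with 7 of 7 higher. H2-Aa stood at 70.4 CPM in the pulse and 139 in the chase gated cells (1.98, 1.29 to 3.17), against a ratio of 4.19 in sinusoidal cells. Interferon response genes had medians of 0.09 in gated and 0.77 in sinusoidal cells, and cell cycle genes 0.28 and -0.58. Restricted to the remaining gated cells, 134 genes were higher and 124 lower in the chase.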

How the data were processed

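Both libraries used version 3.1 of the 10x Genomics 3' kit, per the labels. Deposited were matrices of unscaled UMI counts for 32286 features, which the authors made with Cell Ranger, version 6.0.2 per the file headers and version 2.1.1 per the submitters' processing notes. This difference could not be settled. The build is mm10 per the submitters' processing notes. Its annotation release was not given in sources used here, and gene positions are from GENCODE M21.

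Cells were kept from 500 genes and 1000 UMIs upwards if mitochondrial UMIs were under 10%: 9390 of 10608 pulse and 8445 of 10046 chase barcodes, 86706522 and 79632195 UMIs in all. Groups follow the labels. Counts were summed per class and library and divided by the class total (CPM), and log2 ratios used a prior count of 0.5. Genes needed at least 50 UMIs over both classes, or 10 UMIs seen or expected in the chase Cdh5+ Ptprc- cells, and the 13 gate genes were left out. Cells are not replicates, so no test was run. Shares carry Clopper-Pearson intervals, and ratios carry intervals conditional on the summed counts.

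Against sinusoidal cells the genes named were the 15 highest and 12 lowest with at least 50 CPM by the smaller ratio of both libraries, and for chase against pulse the 12 highest and 12 lowest with at least 100 CPM. Members of 25 gene lists and the markers could be named as well. For the Cdh5+ Ptprc- cells, up to 20 genes in each direction were ranked among genes detected in at least 6 cells with at most 50% of UMIs from 1 cell. That rule, this group, the limited sinusoidal class, the unfiltered list sums and the alternatives built on them were chosen after seeing the data. The members and lists were chosen with earlier results of these data known. One list symbol was not in the files.

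Gated cells were clustered on 2000 variable genes, 15 principal components and 15 neighbours (Leiden, resolution 1, seed 1). The ratio and thinning code was tested on simulated data. Scrublet calls were not removed. Python 3.11.15, numpy 2.4.6, scipy 1.17.1, pandas 2.3.3, scanpy 1.11.5, leidenalg 0.10.2, igraph 0.11.9 and scikit-learn 1.9.0 were used.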

Additional observations from a re-analysis of the deposited data

How the results depend on the processing

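No paired analysis was possible because each group has 1 library and no result comes from a test. With 1 library a group, 85 gated cells, and 102777 UMIs in the 18 chase Cdh5+ Ptprc- cells, a gene at 0 there allows up to 29.2 CPM. Of 110 alternatives for the counts and shares, 77 stayed near the value given and 33 moved beyond the limit; of 433 for list medians 108 moved and 22 changed sign, and of 594 for named genes 173 moved and 10 changed sign. Restricting the gate to Cdh5+ Ptprc- cells left 2 pulse and 18 chase cells (share ratio 10.0), 186 genes lower than in sinusoidal cells, and 48 higher and 22 lower in chase than pulse. Log2 ratios there turned to -0.60 for Lars2 and -0.13 for Ly6c1 (chase over pulse), to -2.81, -1.57 and -1.29 for Hist1h1b, Hist1h2ae and Ms4a3 (chase, against sinusoidal) and to -0.13 for Plac8 (pulse). Medians turned to 1.92, 0.73, 1.31 and 0.47 in the chase for arterial, capillary, metaphyseal and pan-endothelial genes, and to 1.81, 1.80 and 1.07 in the pulse for the last 3. A gate sum of at least 8 UMIs left 2 and 21 cells (ratio 11.7; 216 genes lower), with Lars2 at -1.47, Ly6c1 at -1.32 and pulse Plac8 at -0.13, and with medians of 0.70, 0.13 and 0.28 in the chase for arterial, capillary and metaphyseal genes and of 1.81, 1.80 and 1.07 in the pulse for capillary, metaphyseal and pan-endothelial genes. Gating after thinning to 3000 UMIs gave 24 chase cells, a share ratio of 1.71, and 142 genes higher and 298 lower than in sinusoidal cells. It gave -3.39 for chase Hist1h1b, chase medians of 1.86, 0.31, -0.30, 0.90 and 0.051 for arterial, capillary, cell cycle, metaphyseal and pan-endothelial genes, and 0.39 for capillary genes in the pulse. Chase against pulse gave 288 genes higher and 208 lower with means of per-cell CPM (chase arterial median 0.044), 550 and 373 with 20 UMIs per gene, and 589 and 373 with a fold of 1.5. The latter fold gave 696 genes higher and 465 lower for the chase Cdh5+ Ptprc- cells and 1526 higher for all gated cells. A mitochondrial limit of 5% gave 176 genes lower for the chase Cdh5+ Ptprc- cells, and leaving out cells that held another list gave 156 higher and 117 lower. Without thinning, capillary, metaphyseal and venous transcripts were found in 69.7%, 30.3% and 31.8% of chase gated cells, and metaphyseal transcripts in 31.6% of pulse gated cells. Asking for 4 UMIs gave 1.64% for metaphyseal and 3.28% for venous transcripts in the chase and 0% for venous ones in the pulse. Against the limited sinusoidal cells the MHC class II medians were 1.24 (chase Cdh5+ Ptprc- cells) and 0.71 (pulse gated cells). Apart from these settings' own construction (other cells, fewer or more genes), the cause was not tested.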
